A study of Homo sapiens with 12 samples.

Results

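Collagens, laminins and the proteins deposited with them form the extracellular matrix, and 49 genes of this kind were followed in MV3 melanoma cells exposed to macrophage vesicles. The genes were given as a list: 20 collagen chains, 8 laminin chains, the laminin-binding proteins NID1, NID2, HSPG2 and AGRN, 8 adhesive or matricellular glycoproteins, the fibrillins FBN1 and FBN2, the 5 lysyl oxidases, and the proteoglycans VCAN and BGN. Each was represented by its RefSeq transcript with the highest sum over the 12 libraries, and the table held 28100 genes treated in this way. All 49 were found, 22 of them with more than 1 transcript, and 40 had enough counts to be tested.

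MV3 is an established human melanoma line. Its cells were kept for 3 h in medium with 1% serum depleted of extracellular vesicles (EVs), then for 24 h with PBS (the Ctrl group) or with 1e10 EV particles per well. The EVs came from macrophages of THP-1, a leukaemia line of human monocytes, after 48 h of polarization, and their 3 states (M0, M1, M2) gave the groups M0 EV, M1 EV and M2 EV. Each group had 3 libraries, so all 12 libraries share the cell line, the low-serum medium and the harvest time. Polarizing agents are not named in the labels, nor is it said whether replicates were separate cultures or EV preparations. Errors and p-values therefore measure the spread between these samples, and a model of 1 line says nothing of other melanomas.

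Collagens are trimers of chains that assemble inside the cell, and after secretion they form fibrils (types I, III, V, XI and XXVII), sheet-like networks (type IV) or beaded filaments (type VI). Laminins are trimers of an alpha, a beta and a gamma chain that polymerize at the cell surface into the basement membrane, where nidogens, perlecan and agrin join them to collagen IV and to receptors. Lysyl oxidases cross-link collagen and elastin, and matricellular proteins such as SPARC and the thrombospondins bind matrix and cells without being structural. In melanoma the matrix is made both by the tumour cells and by neighbouring fibroblasts, and the labels name no cell type but MV3 in these wells.

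The libraries held 9694846 to 14379738 counts in named genes, with a biological coefficient of variation of 2.59%. M0 EV replicate 1 stood apart from the other libraries of its group (chi-square per degree of freedom 2.01 and 2.33, against 1.04 between replicates 2 and 3). The label melanoma was checked against 19 melanoma and melanocyte markers. CSPG4 and MCAM were present at 129 and 81.6 CPM in Ctrl (counts scaled to 1e6 per library), but SOX10 had 2 counts in all 12 libraries, MITF had 104, and TYR, DCT and S100B had none. The 19 markers summed to 2014 to 2062 CPM in Ctrl and to 1742 to 1841 CPM in M1 EV. Most of that sum was AXL, at a mean of 1311 CPM in Ctrl and 1038 CPM in M1 EV. EGFR was at 262 and 275 CPM. Of the 10 tested, 3 were higher with M1 EV (MC1R 0.41, MCAM 0.36 and PAX3 0.23 on the log2 scale). Another 4 were lower (GPNMB -0.61, TFAP2A -0.43, SOX9 -0.42 and AXL -0.34). Together they were 70% of the 10 at an adjusted p below 0.05, against 28.1% of all tested genes. Of 33 macrophage markers, 12 had no count in any library, among them CD163, TYROBP and MARCO, and 5 were tested. The 33 genes summed to 70.6 to 77.6 CPM in Ctrl and to 88.6 to 89.3 CPM in M1 EV. CTSS (log2 fold change 1.98) and CD68 (0.24) were higher there, 40% of the 5 tested, against the same 28.1%. Of 10 fibroblast markers, 5 had at most 10 counts, DCN among them. Their sum over all 10 was 65.3 to 66.8 CPM in Ctrl and 76.3 to 86.1 CPM in M1 EV. FAP was higher in M1 EV (0.66) and PDGFRB lower (-0.59), 66.7% of the 3 tested. Whether vesicle RNA or other cells had a part in the matrix results was not tested.

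In Ctrl, the 49 genes took 1.23% ± 0.017 (SD, n = 3) of the gene total, and 5 genes held 58.4% of that over all 12 libraries: SPARC (13.8%), COL1A1 (13.3%), FN1 (12.4%), COL6A2 (10.4%) and COL6A1 (8.56%). Counts grow with transcript length, so levels of different genes were set side by side as CPM per kilobase of transcript. On that scale SPARC, a collagen-binding matricellular glycoprotein, was the highest in Ctrl at 501 ± 14.8 (SD, n = 3). COL6A2 at 309, COL1A1 at 245, COL6A1 at 217, the collagen IV cross-linker LOXL2 at 190 and fibronectin (FN1) at 181 came next. TGFBI, an integrin-binding adhesive protein, stood at 150 CPM per kilobase and the laminin gamma chain LAMC1 at 105. By CPM in Ctrl, 17 genes were at or above 100, 15 between 10 and 100, and 8 tested genes below 10.

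**Figure D1:**
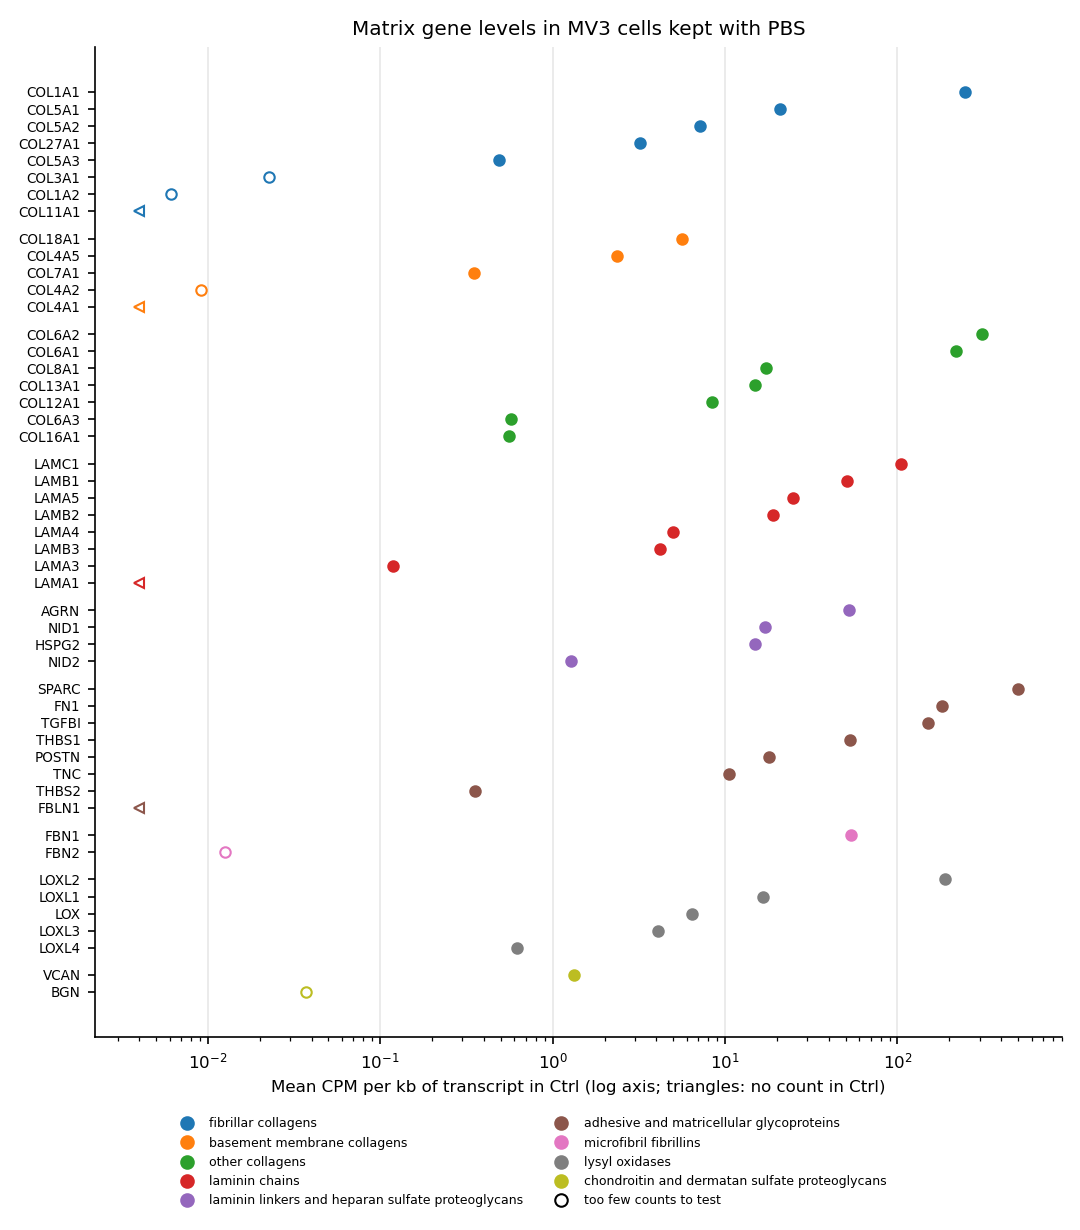
Mean level of each of the 49 matrix genes in the 3 Ctrl libraries, in CPM per kilobase of transcript on a log axis, coloured and grouped by role. Open circles are genes with too few counts to test and open triangles genes with no count in Ctrl. SPARC (501), COL6A2 (309) and COL1A1 (245) lie at the right, and the partner chains COL1A2, COL4A1 and COL4A2 at or near the left edge.

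Chains that normally assemble together were present in very unequal amounts. COL1A1 had 220155 counts over the 12 libraries and COL1A2, the other chain of type I collagen, had 3. COL4A1 had no count, which allows up to 0.0225 CPM over all libraries, and COL4A2 had 2. These 2 genes encode the common chains of collagen IV and lie head to head on chromosome 13, 126 bases apart. COL4A5, a chain of the restricted kind, was read at 15.2 ± 1.24 CPM in Ctrl (SD, n = 3). The third chain of collagen VI, COL6A3, was at 0.573 CPM per kilobase, against 217 for COL6A1. Among laminin alpha chains LAMA5 led at 24.7 CPM per kilobase, ahead of LAMA4 at 5.00 and LAMA3 at 0.118, and LAMA1 had no count. COL3A1 (11 counts in all libraries), COL11A1 (0), FBLN1 (8), FBN2 (10) and BGN (18) were likewise too low to test. BGN, a small proteoglycan, had 3, 6 and 9 counts in Ctrl, M0 EV and M2 EV and none in M1 EV, where up to 0.0973 CPM would be compatible with a count of 0. Limits of this kind cover counting error only.

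The promoters of the matrix genes were searched as sequence background to the changes below. RefSeq gave a start-site window for 40 of the 49 genes (GRCh38.p14), of which the 250 bases before the start were searched on both strands. Each gene had 1 window, which was not matched to the transcript counted. Some windows lie inside the gene, among them that of LAMA3 (chr18:23872770-23873019, in a gene at 23689453 to 23955066). COL1A1, COL1A2, COL3A1, COL5A2, COL6A1, COL8A1, LAMA1, AGRN and LOXL2 had no entry. The NF-kB consensus, bound by the transcription factor family that mediates many inflammatory responses, matched in 4 of the 13 promoters of genes higher with M1 EV, in 0 of the 14 of genes lower, in 1 of 7 (LOXL4) of genes not called and in 1 of 6 (FBLN1) of genes not tested. Over all 10485 tested genes with a window, 11.5% held a match. The 4 promoters are printed because their genes rose with M1 EV and hold a match, and LOXL1 because it fell and holds none. Whether NF-kB had a part was not tested. The printed promoters were picked by both the change and the match, so they are no test of it. Each runs 5′ to 3′ on the gene's strand and ends at the base before the start, with NF-kB matches in capitals.
LAMB3: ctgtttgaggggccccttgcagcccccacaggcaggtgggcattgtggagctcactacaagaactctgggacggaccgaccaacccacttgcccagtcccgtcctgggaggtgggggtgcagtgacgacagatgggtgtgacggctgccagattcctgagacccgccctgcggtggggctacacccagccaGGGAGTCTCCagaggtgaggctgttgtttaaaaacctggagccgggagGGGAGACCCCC
COL6A2: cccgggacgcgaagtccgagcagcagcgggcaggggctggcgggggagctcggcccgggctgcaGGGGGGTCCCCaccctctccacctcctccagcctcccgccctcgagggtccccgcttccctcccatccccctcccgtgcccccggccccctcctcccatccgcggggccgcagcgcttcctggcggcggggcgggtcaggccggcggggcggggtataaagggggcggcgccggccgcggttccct
COL7A1: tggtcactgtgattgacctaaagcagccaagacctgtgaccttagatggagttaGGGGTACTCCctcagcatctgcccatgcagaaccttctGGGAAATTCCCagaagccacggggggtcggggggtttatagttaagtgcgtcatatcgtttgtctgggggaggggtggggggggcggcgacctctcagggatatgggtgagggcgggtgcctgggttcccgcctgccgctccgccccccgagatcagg
NID1: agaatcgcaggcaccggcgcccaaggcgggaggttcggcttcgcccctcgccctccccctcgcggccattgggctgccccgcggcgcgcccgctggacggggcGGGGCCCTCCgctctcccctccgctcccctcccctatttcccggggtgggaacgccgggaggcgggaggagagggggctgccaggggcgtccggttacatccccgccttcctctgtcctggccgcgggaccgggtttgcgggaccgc
LOXL1: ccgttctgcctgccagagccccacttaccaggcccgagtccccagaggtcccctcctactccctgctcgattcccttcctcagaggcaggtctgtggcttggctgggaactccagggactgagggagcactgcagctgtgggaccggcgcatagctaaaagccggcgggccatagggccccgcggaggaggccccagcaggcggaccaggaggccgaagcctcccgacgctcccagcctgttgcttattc

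The LAMB3 window lies at chr1:209652426-209652675 on the minus strand, and its capitals begin 59 and 11 bases before the start, the second run being 2 overlapping matches. The COL6A2 window is at chr21:46097862-46098111 on the plus strand, with 2 overlapping matches from 186 bases before the start. For COL7A1 (chr3:48595330-48595579, minus strand) the runs begin 196 and 158 bases before the start, and for NID1 (chr1:236065091-236065340, minus strand) 147 bases before it. The LOXL1 window is at chr15:73926212-73926461 on the plus strand. The AP-1 site TGANTCA was in 2 of 40 windows (LAMA3 and POSTN; 3.9% of all promoters), the TEAD site GGAATG in 6 of 40 (15%, against 9.5%), the GC box GGGCGG in 30 of 40 (75%, against 66.8%), and TATAAA in 5 of 40 (12.5%, against 5.4%). These motifs were also split over the 13 windows of genes higher and the 14 of genes lower with M1 EV. The AP-1 site was in 0 and 0, the TEAD site in 2 and 2, the GC box in 11 and 9, and TATAAA in 2 and 1. Matches of the GC-rich motifs can overlap NF-kB matches. A match is a run of letters, not a shown binding site.

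M1 EV was set against Ctrl to see what the vesicles named in the study's title did to matrix transcripts. Most of the tested genes changed, in both directions: 15 rose and 17 fell, and 8 were not called. That is 80% of the 40 tested, against a background of 28.1% of all 13116 tested genes (14.3% higher and 13.7% lower). Matrix genes were read more deeply than most, with a median of 7054.5 counts over the 12 libraries against 4119.5 for all tested genes. Among genes with a mean of at least 10 CPM, 27 of 32 matrix genes were called, against 33.3% of all genes. The median log2 fold change was -0.11 for the matrix genes and 0.00075 for all genes. Of the called genes 15 differed by at least 1.5-fold and 4 by at least 2-fold, which is 37.5% and 10% of the 40, against 3.58% and 1.11% of all tested genes. The M1 EV and Ctrl libraries did not overlap for 33 of the 40 genes, against 39.6% of all genes. Set against all 9 other libraries at once, 14 matrix genes were above every one of them in each M1 EV library and 16 below (background 24% of all genes in either direction). In bulk RNA, fewer cells making a transcript and less of it per cell cannot be told apart.

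**Figure D2:**
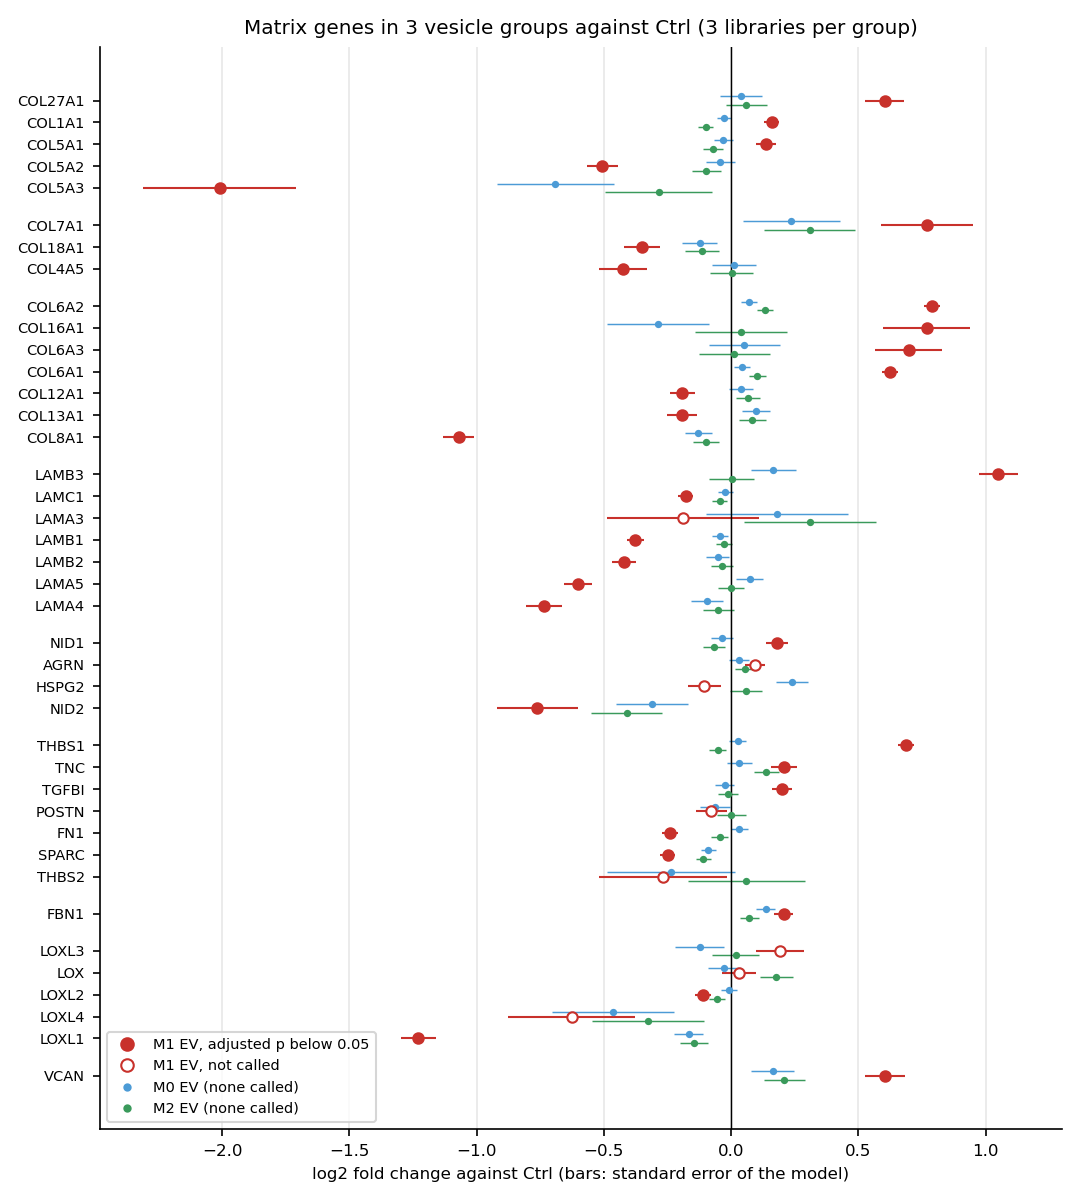
Log2 fold change against Ctrl of the 40 tested matrix genes, grouped by role, for M1 EV (large red), M0 EV (small blue) and M2 EV (small green), with the model's standard error as bars. Filled red points passed the adjusted p threshold of 0.05. M1 EV points range from -2.01 (COL5A3) to 1.05 (LAMB3), and no M0 EV or M2 EV point was called.

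Collagen VI rose as a family. Its filaments surround cells and link them to other collagens, and need all of its chains. COL6A2, on chromosome 21, 93063 bases from COL6A1, was read at 1061, 1044 and 1103 CPM in Ctrl and at 1851, 1859 and 1836 CPM in M1 EV. The M1 EV libraries were far above all others, since the M0 EV and M2 EV libraries reached at most 1156 and 1227 CPM. The log2 fold change was 0.79 ± 0.031 (SE, adjusted p = 1.9e-22). COL6A1 was at 919, 881 and 961 CPM in Ctrl and at 1431, 1447 and 1375 CPM in M1 EV, again with no overlap (0.62 ± 0.032, adjusted p = 1.15e-18). The scarce COL6A3 was at 6.80, 4.93 and 6.75 CPM in Ctrl and at 8.88, 9.49 and 11.8 CPM in M1 EV (0.70 ± 0.13, adjusted p = 5.06e-05).

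The fibrillar collagens split, and did so within collagen V, whose chains co-assemble and limit the width of collagen I fibrils. COL5A1, its most abundant chain, rose slightly from 177 ± 8.61 to 194 ± 2.32 CPM (0.14 ± 0.039 on the log2 scale, adjusted p = 0.00665), a call lost without Ctrl replicate 2 (adjusted p = 0.0845). COL5A2 was at 49.5, 51.4 and 51.4 CPM in Ctrl and at 36.6, 35.4 and 35.3 CPM in M1 EV. All M1 EV libraries were below all others, and the gene fell by 0.51 on the log2 scale (SE 0.062, adjusted p = 2.92e-08). COL5A3 fell by 2.01 (SE 0.30, adjusted p = 1.15e-06), the largest change of the 40 genes, but from a low level. Its Ctrl libraries were at 3.00, 2.67 and 3.38 CPM, its M0 EV libraries at 2.44, 0.994 and 2.04, its M1 EV libraries at 1.03, 0.547 and 0.686, and its M2 EV libraries at 2.54, 2.08 and 2.89. M0 EV replicate 2 lay just below the highest M1 EV library, so these groups overlapped.

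COL1A1, the abundant chain of type I collagen, was at 1650, 1631 and 1661 CPM in Ctrl and at 1882, 1806 and 1831 CPM in M1 EV (log2 fold change 0.16 ± 0.029, adjusted p = 3.35e-05). The rise was small but outside the spread of the replicates. COL27A1, a fibrillar collagen of developing cartilage, was at 27.2, 25.7 and 22.7 CPM in Ctrl and at 35.0, 42.2 and 36.7 CPM in M1 EV (0.60 ± 0.077, adjusted p = 6.18e-08). Of the 5 tested fibrillar chains, 3 therefore rose and 2 fell.

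Among the other collagens, 4 rose and 3 fell of the 7 tested, and collagen VI made up most of the rises. COL16A1, which associates with fibril surfaces, was at 3.90, 3.19 and 2.58 CPM in Ctrl and at 5.16, 5.47 and 5.69 CPM in M1 EV (log2 fold change 0.77 ± 0.17, adjusted p = 0.000431). COL8A1, a short-chain network collagen of vessels and the cornea, was at 50.8, 53.0 and 52.4 CPM in Ctrl and at 26.9, 24.6 and 23.1 CPM in M1 EV. It was at 46.1 to 49.8 CPM in the M0 EV and M2 EV libraries, so only the M1 EV libraries were low. It fell by 1.07 (SE 0.061, adjusted p = 3.31e-17). COL12A1, also fibril-associated, and COL13A1, a transmembrane collagen, each fell by 0.19 (adjusted p = 0.0024 and 0.013). The call for COL13A1 was lost without Ctrl replicate 1 (adjusted p = 0.106), without M1 EV replicate 3 (0.104) and with DESeq2 (0.0579).

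Of the 3 tested collagens of basement membranes, COL7A1 rose, and COL4A5 and COL18A1 fell. COL7A1 forms the anchoring fibrils that hold the skin's basement membrane to the dermis, and was at 3.60, 3.70 and 2.49 CPM in Ctrl and at 5.58, 5.47 and 5.49 CPM in M1 EV (log2 fold change 0.77 ± 0.18, adjusted p = 0.00076). COL4A5 was at 13.8, 15.6 and 16.2 CPM in Ctrl and at 11.8, 10.8 and 11.6 CPM in M1 EV, a fall of 0.42 (SE 0.094, adjusted p = 0.000524). COL18A1, the precursor of endostatin, fell by 0.35 (SE 0.072, adjusted p = 0.000228). An exon stretch making 16.4% of COL18A1 overlaps SLC19A1 on the opposite strand, and the files do not show if reads were assigned by strand.

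**Figure D3:**
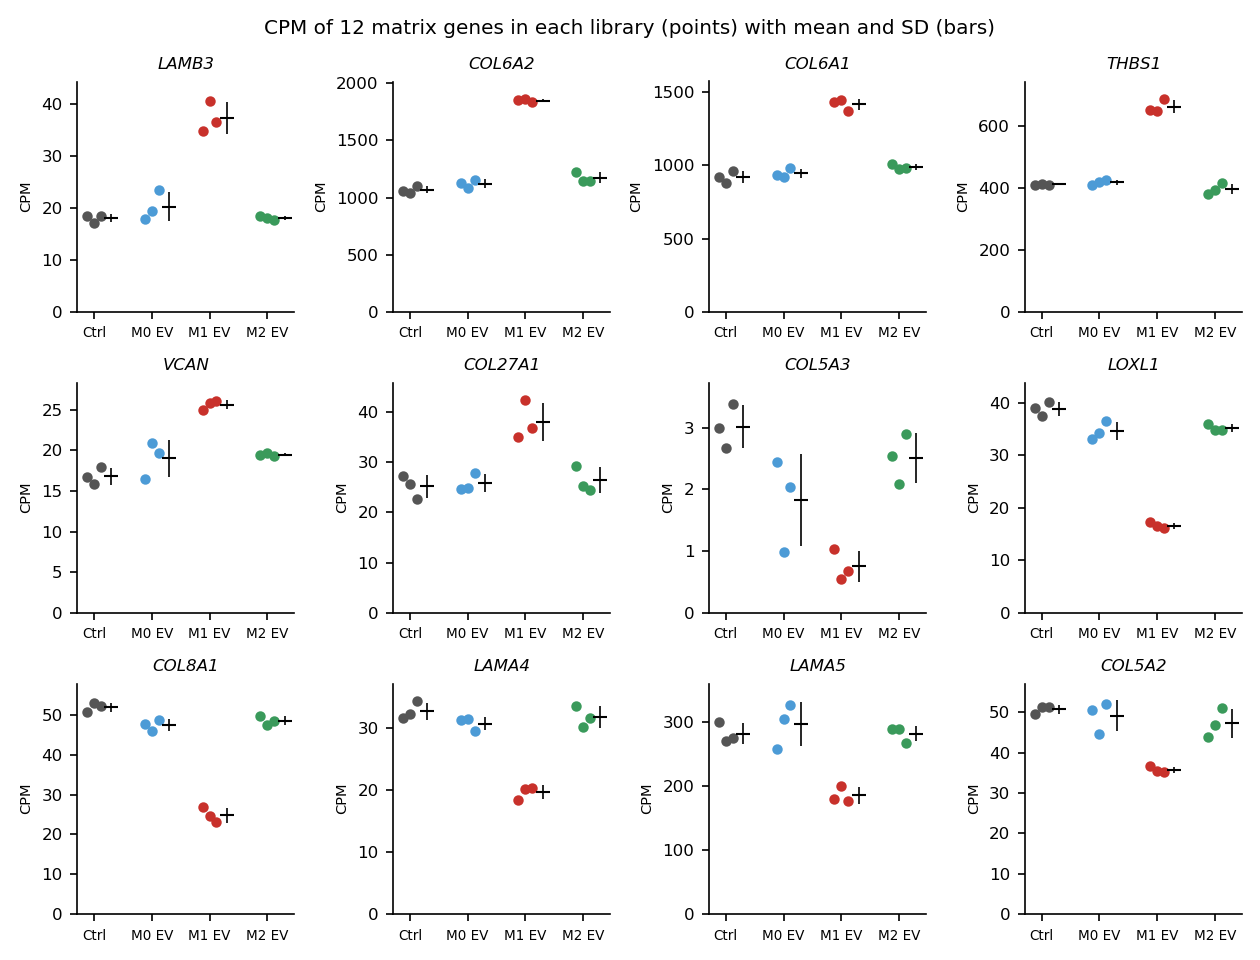
CPM of 12 matrix genes in each library (points: 3 each of Ctrl, M0 EV, M1 EV and M2 EV), with the group mean and SD beside them. The first 6 panels are genes that rose with M1 EV and the last 6 genes that fell. In every panel but COL5A3 the M1 EV points lie outside the range of the other 9 libraries.

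Laminin transcripts mostly fell, with the beta chain LAMB3 the exception: 1 of 7 tested chains rose, 5 fell, and LAMA3 was not called. LAMB3, on chromosome 1 (209614870 to 209652425), encodes the beta chain of the laminin that anchors epithelia. It was at 18.4, 17.1 and 18.5 CPM in Ctrl and at 34.7, 40.6 and 36.5 CPM in M1 EV. Its M0 EV libraries were at 17.9, 19.4 and 23.4 CPM and its M2 EV libraries at 17.7 to 18.4, so the M1 EV libraries stood alone. The log2 fold change was 1.05 ± 0.078 (SE, adjusted p = 8.34e-14), the largest rise of the 40 genes. LAMA3, the alpha chain that joins LAMB3 in that trimer, was at 1.26 CPM in Ctrl and 1.09 CPM in M1 EV (-0.19 ± 0.30, adjusted p = 0.726).

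The chains of the laminins common in vessel and general basement membranes all fell. LAMA4 was at 31.6, 32.3 and 34.3 CPM in Ctrl and at 18.4, 20.2 and 20.4 CPM in M1 EV, a fall of 0.74 (SE 0.071, adjusted p = 8.48e-11). LAMA5 was at 301, 271 and 275 CPM in Ctrl and at 180.0, 201 and 177 CPM in M1 EV, a fall of 0.60 (SE 0.055, adjusted p = 2.55e-11). M0 EV replicate 1 (259 CPM) was below the other M0 EV libraries (305 and 328) for this gene, yet above every M1 EV library. LAMB1 was at 287, 295 and 290.1 CPM in Ctrl and at 225, 223 and 223 CPM in M1 EV, a fall of 0.38 (SE 0.033, adjusted p = 6.98e-12). LAMB2 fell by 0.42 (SE 0.046, adjusted p = 1.97e-09), from 107 ± 5.96 to 80.1 ± 1.62 CPM. LAMC1, the gamma chain that all of these use, fell by only 0.18 (SE 0.030, adjusted p = 1.25e-05), from 826 ± 7.43 to 729 ± 21.0 CPM.

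Because related chains moved by different amounts, ratios between them were computed per library from counts per length. LAMC1 served as a common reference for the laminin chains, and LAMB3 is not taken to assemble with it. LAMB3 stood at 0.0409, 0.0381 and 0.0406 of LAMC1 in Ctrl and at 0.0898, 0.0992 and 0.0915 in M1 EV, with no overlap. LAMB1 to LAMC1 went from 0.485 ± 0.0091 to 0.423 ± 0.014 (SD, n = 3) and LAMA5 to LAMC1 from 0.236 ± 0.014 to 0.176 ± 0.0090. COL5A2 to COL5A1 went from 0.345 ± 0.023 to 0.220 ± 0.0056. COL6A2 to COL6A1 went from 1.42 ± 0.024 to 1.60 ± 0.033, while COL6A3 to COL6A1 was 0.00263 ± 0.00037 and 0.00280 ± 5e-04 with overlapping libraries. Of 13 ratios computed, 10 had M1 EV libraries outside the range of all others. Each of these had an exact 2-sided permutation p of 0.1 (0.13 adjusted over the 13), the smallest that 3 against 3 libraries can give. Several ratios share a gene, and they restate the fold changes above, so the 10 are not separate results. The share for ratios of other gene pairs was not computed.

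**Figure D4:**
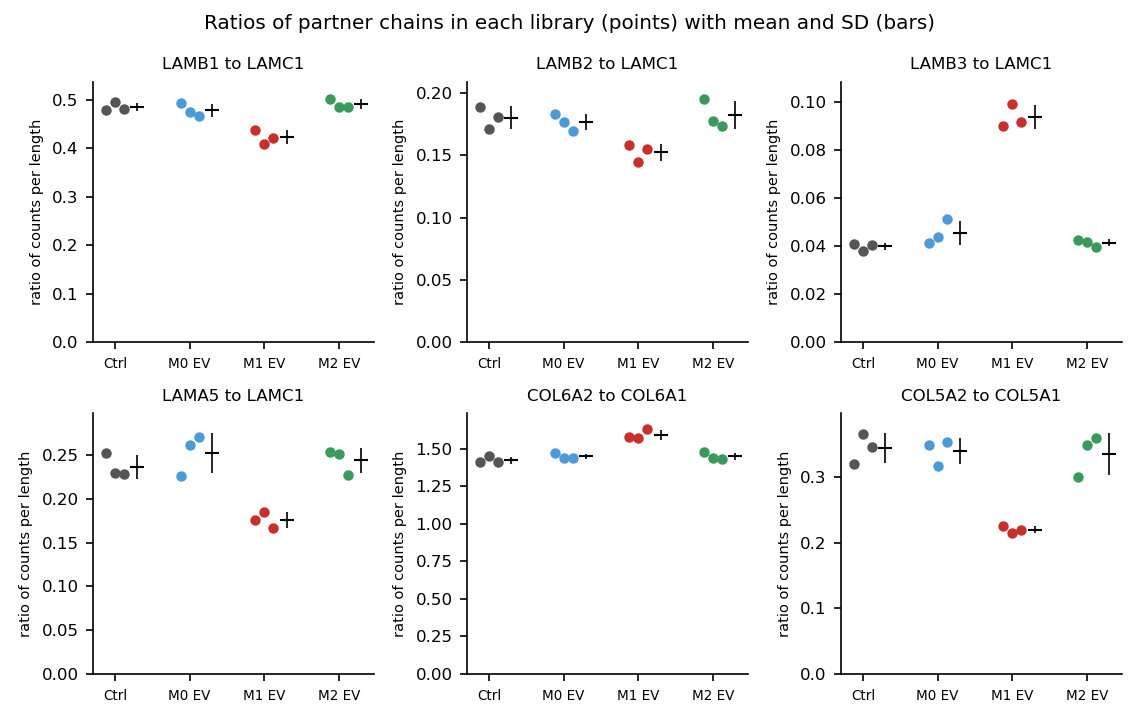
Ratio of counts per length between related chains in each library (points), with the group mean and SD beside them, on axes that start at 0. LAMC1 is a common reference for laminin chains here, not the assembly partner of LAMB3. M1 EV points are low for LAMB1, LAMB2 and LAMA5 against LAMC1 and for COL5A2 against COL5A1, and high for LAMB3 against LAMC1 and COL6A2 against COL6A1.

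The proteins that tie laminin to the rest of the basement membrane did not move together. NID1, the major nidogen, rose from 101 ± 1.48 to 114 ± 3.93 CPM (0.18 ± 0.043 on the log2 scale, adjusted p = 0.00126). NID2 was at 7.0, 5.75 and 5.77 CPM in Ctrl and at 3.20, 4.38 and 3.24 CPM in M1 EV, a fall of 0.76 (SE 0.16, adjusted p = 0.0002). Its M0 EV libraries (4.97, 4.47 and 5.40 CPM) and M2 EV libraries (4.88, 4.65 and 4.42 CPM) were also all below Ctrl. These smaller falls, 0.31 and 0.41, were not called (adjusted p = 0.965 and 0.518). Of NID2's exon sequence, 30% overlaps RTRAF on the opposite strand. Perlecan (HSPG2) and agrin (AGRN), heparan sulfate proteoglycans that bind laminin, were not called, at -0.11 ± 0.064 (adjusted p = 0.242) and 0.09 ± 0.040 (adjusted p = 0.0761). HSPG2, of whose exon sequence 11.7% overlaps LDLRAD2 on the opposite strand, was called as lower without M1 EV replicate 2 (adjusted p = 0.0485) and with no low-count filter (0.035), where AGRN was called as higher (0.0324). AGRN was called as higher without M1 EV replicate 1 (0.0411), M1 EV replicate 3 (0.0491) or M0 EV replicate 1 (0.0437).

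Adhesive and matricellular glycoproteins also went both ways, with 3 higher and 2 lower of 7 tested. THBS1, which encodes thrombospondin-1, a regulator of vessel growth and of TGF-beta activation, was at 410.2, 414 and 409 CPM in Ctrl and at 651, 649 and 686 CPM in M1 EV. No library outside M1 EV exceeded 426 CPM, and the log2 fold change was 0.69 ± 0.033 (adjusted p = 1.84e-19). TNC, a glycoprotein of wounds and tumour stroma, was at 85.2, 74.2 and 83.0 CPM in Ctrl and at 92.9, 92.7 and 94.7 CPM in M1 EV (0.21 ± 0.050, adjusted p = 0.00133). TGFBI rose from 422 ± 18.9 to 485 ± 20.8 CPM (0.20 ± 0.038, adjusted p = 8.64e-05).

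The most abundant members of this group fell. SPARC was at 1834, 1810 and 1914 CPM in Ctrl and at 1610, 1516 and 1552 CPM in M1 EV, a fall of 0.25 (SE 0.029, adjusted p = 7.66e-09). FN1 was at 1624, 1606 and 1609 CPM in Ctrl and at 1359, 1372 and 1367 CPM in M1 EV, a fall of 0.24 (SE 0.033, adjusted p = 3.83e-07). Both genes had every M1 EV library below the other 9. Periostin (POSTN) and THBS2 were not called, at -0.08 ± 0.061 and -0.27 ± 0.25. FBN1, the main fibrillin of microfibrils, rose from 632 ± 10.0 to 729 ± 22.0 CPM (0.21 ± 0.037, adjusted p = 3e-05), although M0 EV replicates 2 and 3 (717 and 731 CPM) were as high. The hyaluronan-binding proteoglycan versican (VCAN) was at 16.7, 15.8 and 17.9 CPM in Ctrl and at 25.0, 25.9 and 26.1 CPM in M1 EV (0.61 ± 0.079, adjusted p = 1.14e-07).

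No lysyl oxidase was called as higher than in Ctrl, and LOXL1 and LOXL2 fell. That is 40% of the 5 tested, against 28.1% of all tested genes (14.3% higher and 13.7% lower). With so few genes these counts describe the genes named, not the family. LOXL1, which acts on elastin, was at 39.0, 37.4 and 40.1 CPM in Ctrl and at 17.2, 16.5 and 16.1 CPM in M1 EV. The M0 EV and M2 EV libraries were at 33.1 to 36.6 CPM, well above M1 EV. LOXL1 fell by 1.23 (SE 0.069, adjusted p = 2.37e-17), and 9.2% of its exon sequence overlaps the antisense gene LOXL1-AS1. LOXL2 fell by 0.11 (SE 0.031, adjusted p = 0.00593), a call lost without M1 EV replicate 3 (adjusted p = 0.0555). LOX itself was at 32.9 ± 3.01 CPM in Ctrl and 33.6 ± 0.748 CPM in M1 EV (0.03 ± 0.067, adjusted p = 0.772). LOXL3 (0.19 ± 0.093) and LOXL4 (-0.63 ± 0.25) were not called either, LOXL4 at 1.03 to 1.86 CPM in M1 EV and 1.87 to 2.98 CPM in Ctrl. Without M1 EV replicate 2 LOXL3 was called as higher (adjusted p = 0.0373), and without Ctrl replicate 3 (0.045) or M1 EV replicate 3 (0.0361) LOXL4 was called as lower. Exons of HTRA2 and DOK1 on the opposite strand overlap 14.3% and 5.0% of LOXL3.

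The summed share of the matrix genes changed little. The 49 genes took 1.32% ± 0.0031 of the gene total in M1 EV, 1.23% ± 0.034 in M0 EV and 1.21% ± 0.014 in M2 EV (SD, n = 3). The M1 EV libraries (1.315% to 1.322%) were above all Ctrl libraries (1.211% to 1.243%), with an exact 2-sided permutation p of 0.1, the smallest possible with 3 against 3.

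M0 EV and M2 EV were compared with Ctrl to show whether vesicles of other macrophage states moved the same genes. No matrix gene was called in either by the edgeR fit over all 12 libraries: 0 of 40 with M0 EV (background 0.0152% of all genes) and 0 of 40 with M2 EV (background 0.0457%). DESeq2 also called 0 in each. At an unadjusted p below 0.05 there were 8 with M0 EV (20% of the 40, against 5.07% of all genes) and 9 with M2 EV (22.5%, against 6.21%). The smallest adjusted p-values were 0.254 for HSPG2 with M0 EV (log2 fold change 0.24 ± 0.063) and 0.115 for COL6A2 with M2 EV (0.13 ± 0.031). COL6A2 was at 1227, 1149 and 1143 CPM with M2 EV, all above the 3 Ctrl libraries. SPARC was at -0.11 ± 0.029 with M2 EV (adjusted p = 0.152), with its libraries at 1711, 1688 and 1756 CPM all below Ctrl. HSPG2 rested on M0 EV replicates 2 and 3 (261 and 286 CPM), since replicate 1 (210 CPM) lay within Ctrl (202 to 223), and without replicate 1 HSPG2 (adjusted p = 4.59e-07) and FBN1 (0.000149) were called as higher than in Ctrl. Without it COL6A2 was also called as higher with M2 EV (0.0316). Other edgeR settings also made calls. The replicate block called HSPG2 as higher with M0 EV (0.048). With no low-count filter HSPG2 (2.44e-07) and FBN1 (0.00619) were higher with M0 EV, and COL6A2 (0.000922) higher and SPARC (0.0454) lower with M2 EV. A fit of M2 EV and Ctrl alone called the same pair (0.0112 and 0.0305). A p above the threshold does not show that these levels were equal.

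M1 EV was also set directly against the other vesicles, in comparisons that share the M1 EV libraries with the one against Ctrl and are not independent of it. Against M0 EV, 15 matrix genes were higher and 18 lower (background 25.3% of all genes, 12.5% higher and 12.8% lower). The higher genes were COL16A1 (log2 fold change 1.05), LAMB3 (0.89), COL6A2 (0.72), THBS1 (0.66), COL6A3, COL6A1, COL27A1, COL7A1, VCAN, LOXL3, TGFBI, NID1, COL1A1, TNC and COL5A1. The lower genes were COL5A3 (-1.32), LOXL1 (-1.06), COL8A1 (-0.94), LAMA5 (-0.68), LAMA4 (-0.64), COL5A2, NID2, COL4A5, LAMB2, HSPG2, LAMB1, COL13A1, FN1, COL12A1, COL18A1, SPARC, LAMC1 and LOXL2. For HSPG2 and COL5A3 the M1 EV and M0 EV libraries overlapped. HSPG2 was at 210 CPM in M0 EV replicate 1 and at 218 CPM in M1 EV replicate 2. Some of the calls above rested on 1 library. Without M0 EV replicate 1, COL7A1 (adjusted p = 0.112), NID2 (0.0822) and TNC (0.0506) were no longer called, and without M0 EV replicate 3, COL18A1 (0.149), NID2 (0.166) and LOXL2 (0.0799), while FBN1 was called as higher (0.0325). NID2 was also lost without M1 EV replicate 1 (0.168) or 3 (0.163), COL18A1 (0.0862) without the former, LOXL2 (0.113) without the latter, and LOXL3 without either (0.0514 and 0.0602). With DESeq2, COL18A1 (0.087), COL7A1 (0.085), NID2 (0.157) and LOXL3 (0.0538) were lost, with summed transcripts COL7A1 (0.0621) and NID2 (0.0693), and with no low-count filter NID2 (0.0548).

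Against M2 EV, 14 were higher and 15 lower (background 24.6%, with 12.6% higher and 12% lower). Higher were LAMB3 (1.05), THBS1 (0.74), COL16A1 (0.73), COL6A3 (0.69), COL6A2 (0.66), COL27A1, COL6A1, COL7A1, VCAN, COL1A1, NID1, TGFBI, COL5A1 and FBN1. Lower were COL5A3 (-1.72), LOXL1 (-1.08), COL8A1 (-0.97), LAMA4 (-0.68), LAMA5 (-0.60), COL4A5, COL5A2, LAMB2, LAMB1, COL13A1, COL12A1, COL18A1, FN1, SPARC and LAMC1. The call for COL7A1 was lost without M2 EV replicate 3 (adjusted p = 0.199) or without M1 EV replicate 1 (0.066), 2 (0.0628) or 3 (0.0601), and that for COL18A1 without M1 EV replicate 1 (0.0621). DESeq2 also lost both (0.154 and 0.0644), and summed transcripts COL7A1 (0.102). HSPG2 was called as lower without M1 EV replicate 2 (0.00828), M2 EV replicate 3 (0.0477) or M0 EV replicate 1 (0.003), and also with no low-count filter (0.000106), the replicate block (0.0215), the 2 groups alone (0.00301) or M0 EV replicates 2 and 3 summed (0.0366). LOXL3 was called as higher without M1 EV replicate 2 (0.0465) and LOX as lower without M2 EV replicate 1 (0.037).

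M2 EV against M0 EV gave 0 of 40 (background 0%) and 0 with DESeq2. At an unadjusted p below 0.05 there were 7, or 17.5%, against 3.41% of all genes. LOX had the smallest unadjusted p there, at 0.21 ± 0.062, with M2 EV libraries at 34.3 to 39.3 CPM and M0 EV libraries at 31.5 to 33.4. Without M0 EV replicate 1, HSPG2 (adjusted p = 9.04e-05) and FN1 (0.0201) were called as lower with M2 EV.

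Genes that make and receive this matrix were read from lists beside the 49. Of 32 genes for collagen synthesis and processing, 27 were tested, and 4 rose and 7 fell with M1 EV (40.7%, against 28.1% of all tested genes, median -0.0066). PLOD2, a lysyl hydroxylase that prepares collagen for cross-linking, rose from 163 ± 4.23 to 218 ± 4.69 CPM (0.42 ± 0.039 on the log2 scale, adjusted p = 3.44e-11). COLGALT1, which adds galactose to collagen, rose (0.21), and P3H4 (-0.25) and SEC23A (-0.19), a coat protein of secretory vesicles, fell. Of the remaining 24 collagen chains 3 were tested and COL4A6 fell (-0.29, adjusted p = 0.0353). That is 33.3% of the 3, close to the 28.1% of all tested genes. Among laminin chains outside the 49 genes, LAMA2 fell by 0.46 (SE 0.067, adjusted p = 7.3e-07). Among 63 other matrix glycoproteins and proteoglycans, 32 were tested, 8 rose and 9 fell (53.1%, median -0.080). NTN4, a laminin-related netrin, fell by 0.99 (SE 0.041, adjusted p = 1.96e-21), THBS3 fell by 0.51 and PXDN by 0.22, and AEBP1 rose (0.47).

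Of 28 matrix receptors, 24 were tested, 7 rose and 10 fell (70.8%, against the same 28.1%, median -0.087). ITGA2, the alpha chain of a collagen and laminin receptor, rose from 203 ± 6.4 to 320.0 ± 20.4 CPM (0.66 ± 0.047 on the log2 scale, adjusted p = 1.96e-14). ITGA5 and ITGAV, alpha chains of fibronectin and vitronectin receptors, rose as well (0.47 and 0.44), while ITGA11, of a collagen receptor, fell by 0.44 (SE 0.051, adjusted p = 8.11e-09). These genes were named by adjusted p and do not show the balance of 7 rises and 10 falls. The falls also included ITGA10 (-1.08), BCAM (-0.90), ITGB4 (-0.67), ITGA3 (-0.27) and ITGA6 (-0.21).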

How the data were processed

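Directional poly(A) libraries were sequenced from total RNA, per the labels' protocols. The authors deposited expected counts, not normalized, for 12 libraries and 70507 RefSeq transcripts. The submitters' processing notes name STAR 2.6.1b, HOMER 4.10 and hg38, with strand use in counting not given in the sources used here. Each value was a multiple of 0.5, and 51.3% of non-zero values were not whole. The column with a missing digit in the line's name was assigned to M0 EV replicate 1, since every other library had its own.

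Transcripts were named with RefSeq GRCh38.p14 (69824) or GENCODE 29 (349). The 334 without a name held 0.058% to 0.062% of each library's counts and were left out. Each gene took its transcript with the most counts, rounded to whole counts. Transcript lengths came from GENCODE 29, for COL1A1 from the gene's longest transcript. In R 4.3.3 with edgeR 4.0.16, filterByExpr kept 13116 of 28100 genes (99.91% of counts). After TMM scaling (factors 0.9928 to 1.007), a quasi-likelihood fit over all 12 libraries (8 residual degrees of freedom, no replicate block) gave 2-sided tests for 6 comparisons. Benjamini-Hochberg adjustment ran over all tested genes, with calls made below 0.05. CPM values are TMM-scaled. The model's standard errors (SE) were derived as the absolute log2 fold change divided by the square root of its F statistic. Chain ratios and shares were compared by exact permutation. The test was tried before use on simulated counts with independent libraries and the fit's own spread. Such counts cannot show whether the replicates here are independent.

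The members and the lists were chosen with earlier results of these data known. Named with full statistics were up to 10 rises and 10 falls among called matrix genes that reached a mean of 1 CPM without overlap between groups, the chain partners and 6 further abundant or matricellular genes, every called matrix gene in the other comparisons, and up to 4 genes by adjusted p from each other list. Alternatives were DESeq2 1.42.0, RLE scaling, no low-count filter, the sum of all transcripts, the 2 groups alone, the replicate block and leaving out each library of the 2 groups compared. Leaving M0 EV replicate 1 out of comparisons without that group, and summing M0 EV replicates 2 and 3, were added after seeing the data. A gene that the naming rule takes is not reported here.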

Additional observations from a re-analysis of the deposited data

How the results depend on the processing

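For M1 EV against Ctrl, the count of matrix genes stayed between 14 and 16 higher and between 16 and 18 lower when each library of the 2 groups, or M0 EV replicate 1, was left out, and no called gene changed direction in any alternative run. In the main comparison 29 of the 32 calls were kept in all 14 alternatives. The exceptions were COL13A1, COL5A1 and LOXL2. Against M0 EV the corresponding counts were 13 to 16 higher and 15 to 18 lower, and against M2 EV 13 to 14 higher and 14 to 16 lower. The counts of 0 were less stable. For M0 EV against Ctrl, leaving out a library gave 0 to 2 higher and 0 lower. For M2 EV against Ctrl it gave 0 to 1 higher and 0 lower, and for M2 EV against M0 EV 0 higher and 0 to 2 lower. With no low-count filter, M0 EV against Ctrl had 2 higher (HSPG2 and FBN1), M2 EV against Ctrl had 1 higher (COL6A2) and 1 lower (SPARC), and M2 EV against M0 EV had 1 lower (HSPG2). BGN was then called as lower in M1 EV than in M2 EV (adjusted p = 0.0464), from 0 and 9 counts. With only the 2 groups compared, M2 EV against Ctrl again had 1 higher (COL6A2) and 1 lower (SPARC). The causes were not tested. DESeq2 called 31 matrix genes for M1 EV against Ctrl, 29 against M0 EV and 27 against M2 EV.

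No pairing of the libraries by replicate number was evident, although correlations of this kind cannot exclude a shared day or preparation. Deviations of same-numbered libraries from their group means correlated between -0.076 and 0.13, and 4 of 12 libraries correlated best with their own number. With the replicate block, M1 EV had 32, 33 and 30 matrix genes called against Ctrl, M0 EV and M2 EV, and M0 EV against Ctrl had 1 higher (HSPG2). The 9 genes that were not tested had 0 to 18 counts over all libraries, too few for a comparison at this depth. M0 EV replicates 2 and 3 differed from each other by little more than counting noise, and with them summed the M1 EV counts were the same against Ctrl and M0 EV and rose by 1 (HSPG2) against M2 EV.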
